A study of Mus musculus with 3 samples.

Results

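The clustered protocadherins are 57 of the 21779 nuclear protein-coding genes of the mouse annotation. They were chosen by name, as the protein-coding genes of chromosome 18 whose symbols begin with Pcdha (14 genes, the alpha cluster), Pcdhb (22 genes, the beta cluster) or Pcdhg (21 genes, the gamma cluster). HIF1α binding was mapped by ChIP-seq, in which DNA cross-linked to a protein is pulled down with an antibody and sequenced, in hearts of wild-type Black-Swiss mouse embryos at E12.5. There were 2 HIF1α pulldowns and 1 input, which is the same kind of chromatin without antibody. The measurement is 1 list of 17289 peaks (mm10) that the authors merged from both pulldowns, each peak with a score and, at the end of its name, the number of calls joined in it. The labels name no transgene or mutation, and they do not say whether the pulldowns came from separate embryos. A peak list holds no expression, so the cell types of the heart samples were not checked here, and neither was expression of any protocadherin.

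Clustered protocadherins are single-pass cell adhesion molecules of the cadherin superfamily, best known from neurons, where combinations of them give a cell its surface identity. Each alpha and gamma gene has its own first exon, with its own promoter, spliced to constant exons that the whole cluster shares at the far end. The beta genes are single-exon genes with no shared part. Within alpha and gamma, the C-type genes (Pcdhac1, Pcdhac2, Pcdhgc3, Pcdhgc4 and Pcdhgc5) lie closest to the constant exons, and in neurons they are not subject to the random promoter choice of the other genes. HIF1α is a transcription factor that is degraded when oxygen is plentiful and otherwise switches on genes that adapt cells to hypoxia. To give the scores a scale, 2 known targets of HIF1α, picked with their peaks already known and so no check of the pulldown, carried 2-call peaks scoring 59 at 65 bp from an end of Pdk1 (pyruvate dehydrogenase kinase) and 100 at 338 bp from an end of Ankrd37 (an ankyrin repeat protein induced by low oxygen).

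Across the clusters, 6 distinct peaks had their centre inside a cluster span. The alpha span (chromosome 18, 36930285 to 37188897) held 3 peaks, the beta span (37264998 to 37521419) held 1 and the gamma span (37661775 to 37841873) held 2. That is 8.63 peaks per Mb of the 3 spans, with an exact Poisson interval of 3.17 to 18.8 that covers counting error only. Chromosome 18 as a whole carried 6.55 peaks per Mb, and the autosomes ranged from 6.03 to 7.82, all inside that interval. A density above or below that of the chromosome was therefore not detectable from 6 peaks. By cluster the density was 11.6 per Mb in alpha, 3.9 per Mb in beta and 11.1 per Mb in gamma, on counts of 3, 1 and 2.

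**Figure D1:**
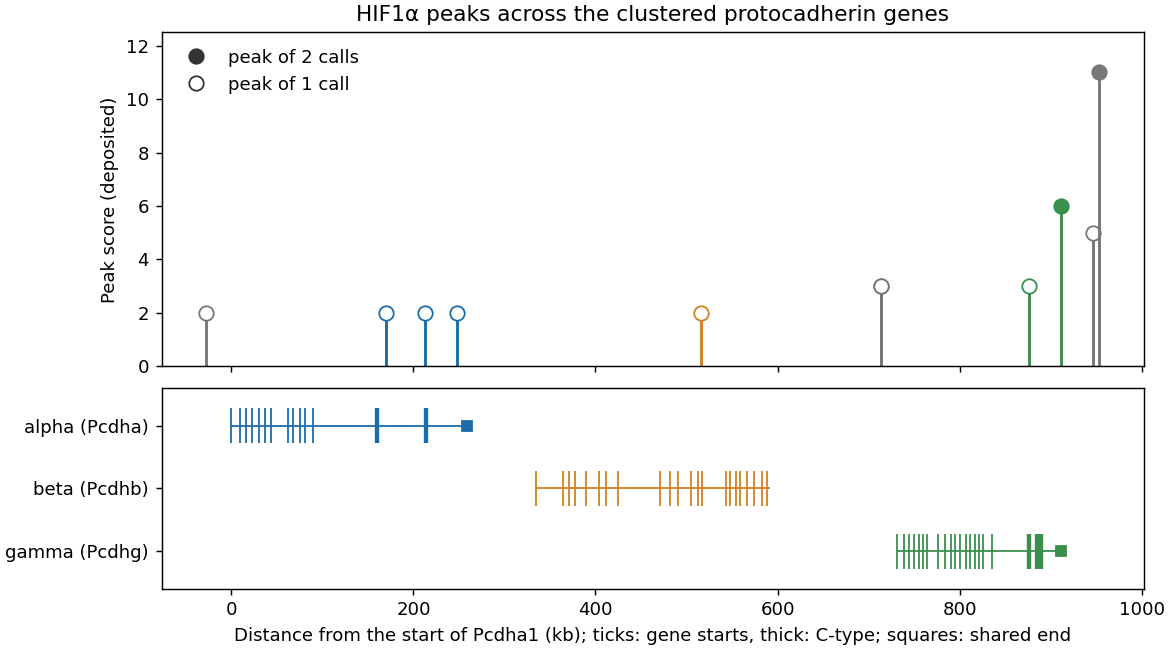
Upper panel: deposited score (vertical axis) of each HIF1α peak against the distance of its centre from the start of Pcdha1 in kb (horizontal axis), with filled circles for peaks of 2 calls and grey for peaks outside the cluster spans. Lower panel: starts of the alpha, beta and gamma genes as ticks, thick for C-type genes, with a square at each shared end. The 3 alpha peaks and the beta peak all score 2, the peak of score 6 stands at the shared gamma end, and the 2 peaks at Taf7 (score 3 each) are drawn on top of each other.

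Most peaks of the clusters had a low score and 1 call, as did most peaks elsewhere in the list. Their scores were 2, 2 and 2 in alpha, 2 in beta, and 3 and 6 in gamma. The lowest score of the list, 2, was held by 4 of the 6 (66.7%), against 56.0% of the 17283 peaks elsewhere, and the median was 2 in both sets. A score of 6 or more was held by 1 of the 6 (16.7%), against 4.08% elsewhere. A difference in scores was not tested. Of the 6 peaks, 1 was of 2 calls (16.7%, exact Clopper-Pearson 95% interval 0.421 to 64.1%), against 11.5% of peaks elsewhere and 8.27% of the other peaks of chromosome 18. Both of those shares lie inside the interval, so a difference in calls was not detectable from 6 peaks.

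The peak of 2 calls lay at the shared end of the gamma cluster (37841710 to 37841824, 115 bp wide, score 6). Its centre was inside all 21 gamma genes, 96 to 106 bp before their annotated ends, where the constant exons of the cluster lie. Among the 1989 peaks of 2 calls in the list the median score was 4, and 420 of them (21.1%) scored above 6. The neighbour Diaph1, which encodes a formin that assembles actin filaments, has an end 1834 bp beyond the peak centre, so the peak is near both the last gamma exon and that gene. On the lower side, the nearest other peak of 2 calls was 1171 kb away (36670220 to 36670359, score 3), and on the upper side it was 41.9 kb away, inside Diaph1 (score 11). The whole alpha and beta clusters and the first exons of gamma fall in that stretch, and no peak of 2 calls was listed there. Such a stretch was common on chromosome 18, where the median gap between neighbouring peaks of 2 calls was 914 kb and 21 of 47 gaps (44.7%) were at least this long.

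At the starts of the genes, where the variable first exons and their promoters lie, 2 peaks had their centre within 1 kb. The closest was at Pcdhgc3, a C-type gamma gene, where a 1-call peak scoring 3 (37806274 to 37806374) was centred 86 bp before the start of the gene at 37806410. It also lies within the 18 gamma genes that begin further upstream, since they run through to the shared end. The next was at Pcdhac2, the last C-type alpha gene, with a peak of 1 call and a score of 2 (37142863 to 37142963) centred 765 bp before its start at 37143678. Of the 6 cluster peaks, these 2 (33.3%, exact interval 4.33 to 77.7%) were within 1 kb of a member's start, against 11.1% of the 17282 other nuclear peaks within 1 kb of the lower-coordinate end of a protein-coding gene, a share inside that interval. The share of genes with a peak within 1 kb of the start was 2 of 57 (3.51%), against 8.32% of all protein-coding genes at the lower-coordinate end. In both comparisons that end mixes starts and 3' ends, because the gene table gives no strand, so neither background is a share at starts.

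The 5 C-type genes were the alpha and gamma genes whose starts lay closest to a peak. The distance from the start to the nearest peak centre was 0.086 kb for Pcdhgc3, 0.765 kb for Pcdhac2, 8.76 kb for Pcdhgc4, 10.2 kb for Pcdhac1 and 13.2 kb for Pcdhgc5. For the other 30 alpha and gamma genes it ranged from 17.3 kb (Pcdhga1) to 95.2 kb (Pcdha9), with a median of 58.4 kb. The lower-coordinate ends of all protein-coding genes had a median of 40.9 kb, with 14.1% within 5 kb of a peak. The C-type and other genes do not overlap within alpha and gamma, but they do once beta is included: the starts of Pcdhb14 (1.02 kb), Pcdhb13 (4.12 kb) and Pcdhb12 (11.0 kb) were closer to a peak than that of Pcdhgc5. These distances are not independent, because neighbouring genes share a peak: the single peak at Pcdhgc3 is the nearest for Pcdhgc3, Pcdhgc4 and Pcdhgc5 alike. The peak nearest to Pcdhac1 (37100261 to 37100361, score 2, 1 call) lies inside the gene, downstream of its start. The third alpha peak (37178304 to 37178404, score 2, 1 call) lies 34.7 kb beyond the start of Pcdhac2 and 9.3 to 10.5 kb before the ends of the alpha genes. It is inside all 14 of them, in the stretch between the last first exon and the shared end.

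**Figure D2:**
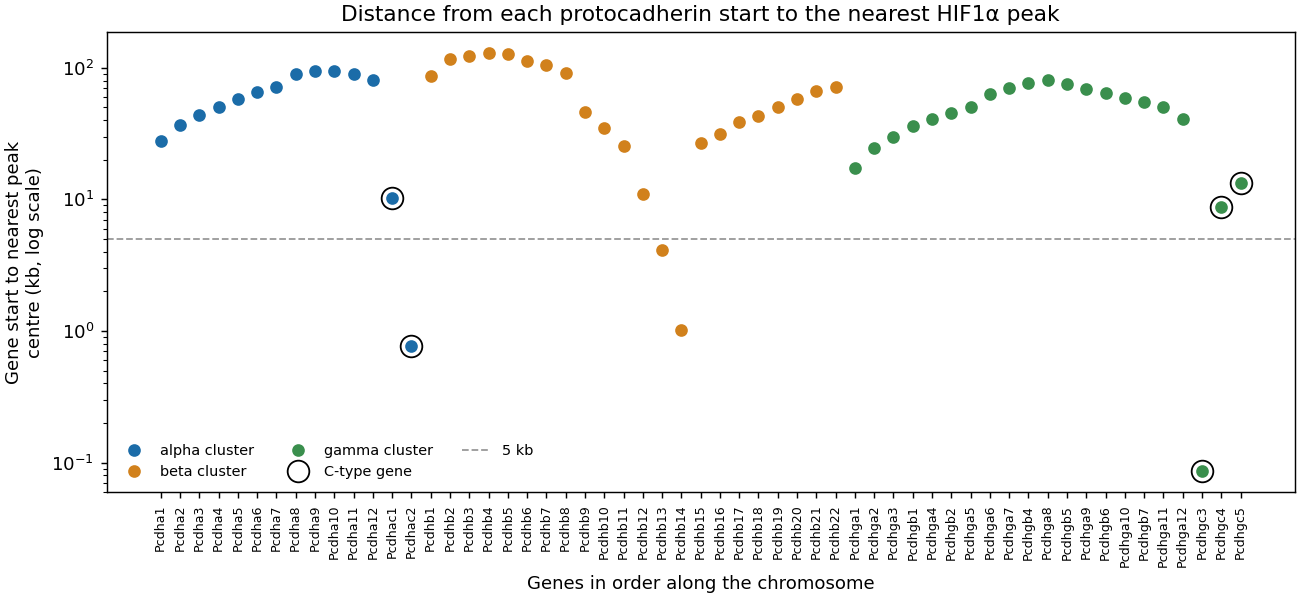
Distance in kb (log scale, vertical axis) from the start of each of the 57 genes to the nearest peak centre, with genes in chromosome order on the horizontal axis, coloured by cluster, and C-type genes ringed. Only Pcdhac2, Pcdhb13, Pcdhb14 and Pcdhgc3 lie below the dashed line at 5 kb, and the farthest start, that of Pcdhb4, is 129.1 kb from a peak.

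The 12 alpha genes before the C-type pair, which are the ones chosen at random in neurons, had no peak within 5 kb of a start (exact interval of the share 0 to 26.5%), against 14.1% of all protein-coding genes at the lower-coordinate end. Their starts lay 27.6 kb (Pcdha1) to 95.2 kb (Pcdha9) from the nearest peak centre. A run of 197.6 kb without a peak separated the peak below Pcdha1 (36902655 to 36902755, score 2, 1 call) from the one inside Pcdhac1. That run holds the first exons of all 12 and also the start of the C-type gene Pcdhac1, 10.2 kb before the peak. The 18 gamma genes before the C-type genes likewise had none within 5 kb of a start (exact interval 0 to 18.5%), at distances of 17.3 kb (Pcdhga1) to 80.6 kb (Pcdhga8). Their first exons fall in a run of 161.9 kb without a peak. Both intervals include the share of all genes, so a lower share was not detectable in either group alone. Pooled as 1 set, the 30 alpha and gamma genes had an exact interval of 0 to 11.6%, which excludes 14.1%. That interval counts the genes as independent, but neighbouring genes share their nearest peak, so a lower share was not tested. Runs longer than 150 kb were common: they made up 211 of the 573 gaps between neighbouring peaks on chromosome 18 (36.8%). Both runs above exceed that cut, and the share of gaps at least as long as each was not counted.

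In the beta cluster 1 peak was listed for 22 genes. It lies between Pcdhb13 and Pcdhb14 (37446590 to 37446690, score 2, 1 call), centred 431 bp beyond the end of Pcdhb13 and 1017 bp before the start of Pcdhb14. The next closest gene was Pcdhb12, whose end was 7.99 kb away, so no beta gene lay just outside the 5 kb window. The remaining 20 genes had no peak in the window. The near genes were 2 of 22 (9.09%, exact interval 1.12 to 29.2%), against 24.0% of all protein-coding genes. That share lies inside the interval, so a lower share was not detectable in beta. The 2 near genes also share their 1 peak, so they are not independent. The farthest starts were those of the genes near the beginning of the cluster, up to 129.1 kb for Pcdhb4. In all, 6 starts were over 100 kb from a peak, and the share of all genes that far away was not counted. The median distance from a start to a peak was 54 kb in beta, 61.2 kb in alpha and 49.9 kb in gamma, against 40.9 kb for the lower-coordinate ends of all protein-coding genes.

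Counting genes instead of peaks gives a different picture of the clusters. With a peak counted when its centre lay within 5 kb of either end of a gene, 24 of the 57 members (42.1%) were near a peak, against 24.0% of all protein-coding genes. The 24 were all 21 gamma genes, 1 of 14 alpha genes (Pcdhac2) and 2 of 22 beta genes (Pcdhb13 and Pcdhb14). They rest on 4 peaks, and the peak at the shared gamma end alone accounts for 20 gamma genes and is also in the window of Pcdhgc3. When each gene was judged by the ends it does not share with the other members of its cluster, 4 of 57 (7.02%, exact interval 1.95 to 17.0%) were near a peak. These were Pcdhac2, Pcdhb13, Pcdhb14 and Pcdhgc3; the same 4 were near at the lower-coordinate end alone, against 14.1% of all protein-coding genes. Within narrower windows, the count by either end was 22 at 500 bp, 23 at 1 kb and 24 at 2 kb, against 13.6%, 16.2% and 18.9% of all protein-coding genes. Counting peaks of 2 calls alone, or scores of at least 3 alone, 21 members were near a peak in either case, all of them gamma genes and all through the shared end, against 7.72% and 19.3% of all protein-coding genes. With scores of at least 3, Pcdhgc3 was also near through the peak at its own start, which scored 3. Since the genes were chosen with results of these data known, no test was made of either share, and genes that share a peak are not independent.

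**Figure D3:**
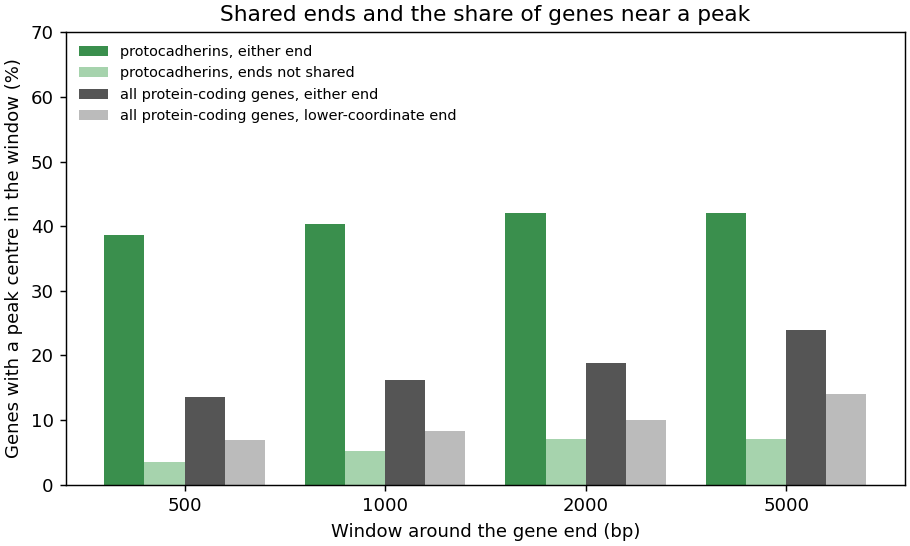
Percentage of genes (vertical axis) with a peak centre within 500, 1000, 2000 or 5000 bp of a gene end (horizontal axis), for the 57 protocadherins by either end and by ends that are not shared, and for all protein-coding genes by either end and by the lower-coordinate end. The protocadherin share is 38.6 to 42.1% with shared ends counted and 3.51 to 7.02% without them.

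No other peak of the list was counted for as many genes. The peak at the shared gamma end lay within 5 kb of an end of 25 protein-coding genes: the 21 gamma genes, Diaph1, and 3 read-through genes (Gm37013, Gm38666 and Gm38667) that start among the alpha genes and end with the gamma cluster. The next highest count was 5, and the median over the 4614 peaks near at least 1 gene was 1. On chromosome 18, 26.8% of protein-coding genes were near a peak with the protocadherins included, against 24.9% without them. For all chromosomes the shares were 24.0% and 23.9%.

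**Figure D4:**
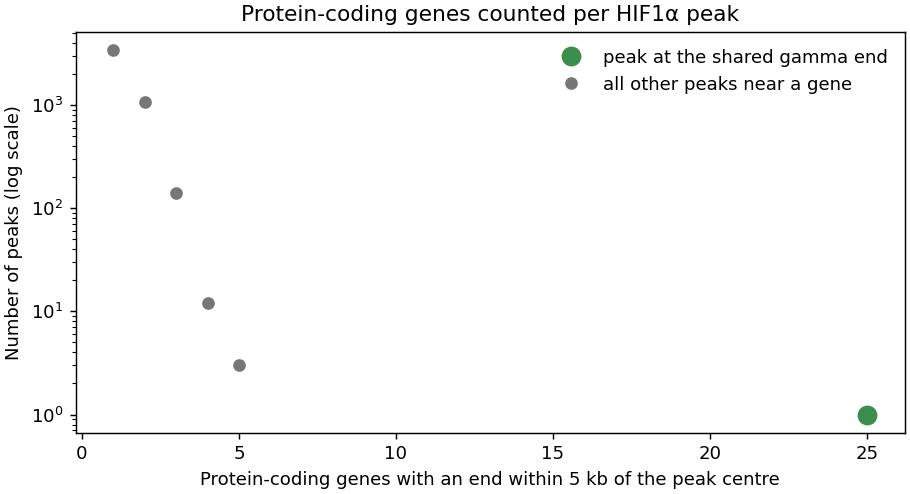
Number of peaks (log scale, vertical axis) by the count of protein-coding genes with an end within 5 kb of the peak centre (horizontal axis), over the 4614 peaks near at least 1 gene. The peak at the shared gamma end stands alone at 25 genes, and every other peak is at 5 or fewer.

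Other genes in and beside the locus carried peaks of their own. Between the beta and gamma clusters lie Slc25a2, a mitochondrial ornithine carrier gene, and Taf7, which encodes a subunit of the general transcription factor TFIID. At Taf7, 2 peaks of 1 call with a score of 3 each were centred 117 and 234 bp beyond its upper end, and these are 17.5 and 17.3 kb before Pcdhga1. Slc25a2 was 5.6 kb from the nearer of them. Of the 5 protein-coding neighbours above the locus (Diaph1, Hdac3, Rell2, Fchsd1 and Arap3), all 5 were near a peak. Below the locus it was 2 of 5, against 24.0% of all protein-coding genes. Neighbours share peaks, so these counts are not independent. Diaph1 holds 3 peaks, of which 2 were of 2 calls and the highest scored 11, and its upper end was 40 bp from a 2-call peak that scored 4. Another 2-call peak of score 4 was centred 17 bp from an end of Hdac3, a histone deacetylase gene, and 56 bp from Rell2. Fchsd1 (2 bp) and Arap3 (2807 bp) shared a 1-call peak of score 2. Of the 5 neighbours below, Hars and Hars2, the divergent cytosolic and mitochondrial histidyl-tRNA synthetase genes, shared 1 peak of score 3 at 20 and 23 bp. Zmat2, Dnd1 and Wdr55 were 10.7 to 19.5 kb from it.

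Relatives and partners of the clustered protocadherins were described with the same window, against 24.0% of all protein-coding genes. The window covers gene ends only, so peaks deeper inside a gene, which some of these genes held, do not count. Of the 12 non-clustered protocadherin genes, which stand alone in the genome, 2 (16.7%) were near a peak: Pcdh20 (1786 bp) and Pcdh11x (2649 bp), both with peaks of 1 call and a score of 2. Pcdh1 and Pcdh12, which follow the clusters on chromosome 18, were 21.0 and 11.8 kb from a peak. Of 20 Cdh cadherin genes, 2 (10.0%) were near a peak, namely Cdh2, which encodes the N-cadherin of heart muscle junctions, with a score of 6 from 1 call at 538 bp, and Cdh6 with a score of 3 at 4651 bp. The Ugt1a genes, which are built on the same plan of variable first exons and a shared end, had 0 of 9 near a peak, and the nearest was 46.8 kb from Ugt1a10.

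Among 15 genes for regulators of the clusters, 4 (26.7%) were near a peak, close to the 24.0% of all protein-coding genes. These regulators include the architectural protein CTCF and the cohesin ring, which bring protocadherin promoters to their enhancers, and enzymes that silence the clusters. Wiz, which encodes a zinc finger protein, had a 2-call peak scoring 11 at 14 bp. Peaks of 1 call were found at Mau2, a cohesin loading factor gene (score 3 at 13 bp), at the transcription factor gene Zfp143 (score 7 at 21 bp) and at Setdb1, which encodes a histone H3 lysine methyltransferase (score 6 at 40 bp). Ctcf itself was 10.9 kb from its nearest peak, and the cohesin genes Rad21, Smc3 and Smc1a were 27.2, 71.0 and 171.0 kb from one. Of 12 genes for cytoplasmic and cleavage partners, 1 (8.33%) was near a peak, against 24.0% of all protein-coding genes. It was the small GTPase gene Rac1 (score 4 from 2 calls at 32 bp).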

How the data were processed

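The labels describe 2 HIF1α pulldowns and 1 input. Bowtie2, HOMER and the mm10 build were used by the authors, per the submitters' processing notes. Peaks of each pulldown against the input were merged by the authors into 1 list, per the file headers. Each deposited peak score is a whole number, with 2 the lowest. Its scale, the calling threshold and the merge rule are not stated in the labels or header. The header names 10 columns and the file holds 6, so score (column 5) and calls (last number of the peak name) were read from the values. The pulldown behind a peak of 1 call is not marked, and the depth is unknown, so no value has a replicate error. Sequence is not reported here.

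Gene positions came from a RefSeq table of GRCm38.p6 (mm10), without strand or exons. Genes that end below 3 Mb, except on Y, were treated as unplaced and dropped. The lower coordinate was taken as the start of each protocadherin, since the clusters are transcribed in that direction. Ends within 2 kb of another member's were called shared. Distances run from peak centres. Members and lists were chosen with earlier results of these data known, so all results are descriptions. Named were members within 5 kb of a peak, the closest and farthest member of each cluster, C-type genes, 5 neighbours on each side, and up to 4 near genes of each list. All listed symbols matched a gene, and 1 regulator is not reported here. Intervals are exact 95% Clopper-Pearson or Poisson intervals and cover counting error only. The distance calculation was tested on simulated peaks. Python 3.11.15, pandas 2.3.3 and scipy 1.17.1 were used.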

Additional observations from a re-analysis of the deposited data

How the results depend on the processing

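The count of 24 protocadherins near a peak depended on how shared ends are counted: it was 4 by ends that are not shared, and 4 by the lower-coordinate end alone, an alternative chosen after seeing the data. The count was 22 to 24 of 57 under windows of 500 to 2000 bp or any overlap. It was 21 of 57 with scores of at least 3 or with peaks of 2 calls. With the read-through genes and the Pcdhgb8 pseudogene added, it was 28 of 61, a setting also chosen after seeing the data. The count of 6 distinct peaks became 11 with a flank of 50 kb, 2 with scores of at least 3 and 1 with peaks of 2 calls, and 8 over the whole locus with the gap at Taf7 included. The share of peaks within 1 kb of a start was 16.7 to 50.0% under the other windows and scores of at least 3, and 0% for the 1 peak of 2 calls. The share of peaks of 2 calls was 50.0% among the 2 peaks with scores of at least 3 and 18.2% with a flank of 50 kb. No paired analysis was possible because the list merges both pulldowns and no result comes from a test, and for the same reason no replicate could be left out. Read mappability and input levels were not examined.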
